A study of Mus musculus with 88 samples.

Results

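The contrast of LPS at 24 h with LPS at 9 and 12 h covers 12 of the 88 samples of a proteome series on mouse dendritic cells. They come from 6 of the 42 mass spectrometry runs digested with trypsin: 2 runs at 24 h and 4 runs at 9 and 12 h, replicates 1 and 2 at each time. The runs were chosen by their labels alone, and protein groups marked as reverse hits, contaminants or identified only by a modified site were dropped. A protein group is a protein, or several proteins that share their peptides. Of the 5899 groups kept, 4632 had a ratio in at least 1 of the 6 runs.

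The cells were bone-marrow-derived dendritic cells of female C57BL/6J mice, grown with GM-CSF. At day 9 they received LPS, the outer membrane glycolipid of Gram-negative bacteria, at 100 ng/ml (rough, ultrapure, E. coli K12 strain) or no stimulus (mock). All cells were pooled just before stimulation, so all groups share that starting population. The labels give no genotype other than the strain and no age, and they leave unsaid whether replicates 1 and 2 come from separate cultures. The p-values below therefore cover the scatter of these samples alone, and part of it may be technical. Cultures of this kind are grown from whole marrow and can hold other myeloid cells beside dendritic cells.

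The assay was pulsed SILAC. Protein made before stimulation carries medium-weight amino acids (M), protein made afterwards carries heavy ones (H), and unlabelled (light, L) dendritic cells served as a common reference in every run. The ratio M/L therefore follows old protein, H/L follows new protein, the sum of both follows total protein, and H/M follows how far old protein was replaced. A run's M/L and H/L were divided by 1 factor, its median summed ratio over 2628 proteins with M/L in all 42 runs, so 1 stands for the typical total protein of that run. A change is the log2 difference of 24 h from the mean of 9 and 12 h, with its standard error (SE) from limma fitted over all 10 LPS times. Changes with a Benjamini-Hochberg adjusted p under 0.05 over all proteins tested are said to have risen or fallen.

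LPS is sensed by TLR4, which signals through Myd88 to NF-kB and AP-1 and through a second arm to interferon genes. Early products such as interleukin-1, Ptgs2 and chemokines are known for transient expression, whereas interferon secreted by the cells acts back on them and sustains antiviral genes. A stimulated dendritic cell also changes its metabolism and antigen presentation and leaves the cell cycle. These are textbook properties and not results of these data.

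The 6 runs held between 3716 and 3929 proteins with M/L. The median heavy share of a protein was 21.3% and 18.7% at 9 h, 23.7% and 19.7% at 12 h and 32.8% and 30.7% at 24 h. It was thus higher in both 24 h runs. In the 2 runs of 0 h this share was already 14.2% and 13.1%, before any protein was made after stimulation. The heavy channel therefore has a floor, which was not subtracted from H/L, H/M or these shares. Low H/L values below may be largely this floor. Run factors lay between 0.699 and 1.62, and replicate 2 of 12 h had the value of 1.62. Of dendritic cell markers, Cd74, H2-Aa, H2-Ab1, Itgax and Fscn1 were measured. The macrophage list had 11 of 19 markers in all 6 runs, and their summed total ratio was 9.03 and 8.84 at 9 h, 8.72 and 8.02 at 12 h and 10.0 and 9.71 at 24 h. The granulocyte list had 11 of 22, and its sum was lower in both 24 h runs: 15.4 and 14.6 at 9 h, 14.1 and 14.1 at 12 h, 11.1 and 10.5 at 24 h. Of 19 lymphocyte markers none was in all 6 runs, and of 14 erythroid and platelet markers 1 was.

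In new protein, 631 of 3230 proteins tested rose from 9 and 12 h to 24 h, which is 19.5%, and 17 fell, which is 0.526%, with a median change of 0.61 over all proteins. The direction of the median rests on the scaling, as it was 0.38 without the run factor and -0.22 on the deposited normalized ratios, where 0 rose and 20 fell by limma's test (25 higher and 214 lower at an unadjusted p under 0.05). After centring every channel at its median, which reads a protein against the median protein, 17 rose (0.526%) and 34 fell (1.05%). The count of 648 calls dropped to 115 without replicate 1 of 24 h, to 119 without replicate 2 of 24 h, to 413 without replicate 2 of 12 h and to 415 without replicate 2 of 9 h. Many of the single proteins below are therefore given with their values in each run, and the others with a fitted change.

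The comparison turned next to the proteins that LPS had induced. Induction was taken from other runs, those of 4, 5 and 6 h: 71 of 3369 proteins (2.11%) had new protein at least 2-fold higher in LPS than in mock there and passed the test. At 24 h, 70 of them were tested against 9 and 12 h. Of these, 11 fell and had passed their peak, 5 rose further and 54 did neither, against 0.526% lower and 19.5% higher among all proteins. Their median change was 0.10, beside 0.61 over all proteins, and 62 of the 70 lay below the median of all. Relative to the median protein 14 fell and none rose by limma's test (0 higher also at an unadjusted p under 0.05). In total protein 13 fell and 6 rose, beside 2.14% lower and 2.88% higher among all proteins. New protein was highest at 24 h, of the 10 times, in 35 of the 70 (50%), and in 2026 of 3046 (66.5%) of all tested proteins with a defined peak time.

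**Figure D1:**
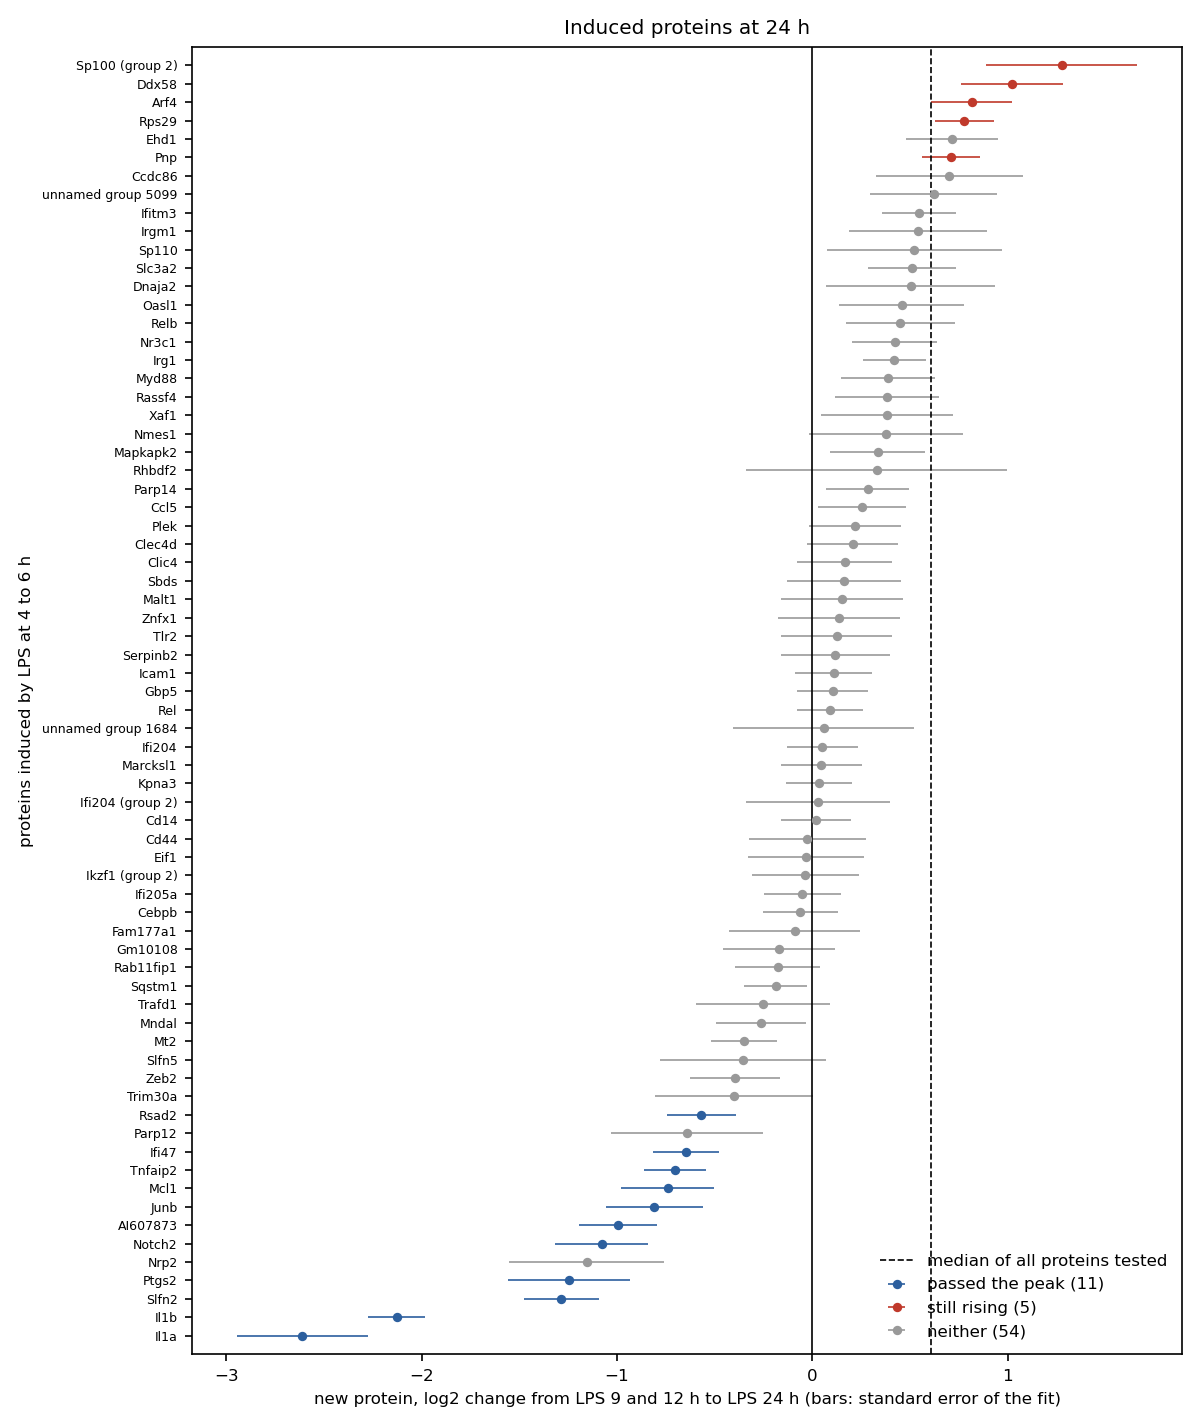
Change in new protein from LPS 9 and 12 h to LPS 24 h (log2, horizontal axis) for the 70 proteins induced by LPS at 4 to 6 h, one row each; points are fitted changes and bars their standard errors. The 11 proteins past their peak (blue) range from Il1a to Rsad2 and the 5 still rising (red) from Sp100 (group 2) to Pnp, and 62 of the 70 points lie left of the dashed line, the median of all proteins tested.

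Interleukin-1 alpha and beta, the pyrogenic cytokines of early inflammation, fell most among the induced proteins. New Il1a stood at 3.20 and 1.92 at 9 h and 3.32 and 1.93 at 12 h, and at 0.462 and 0.365 at 24 h. Both 24 h runs lay below all 4 earlier ones, although replicate 1 was higher than replicate 2 at each time. The change was -2.61 ± 0.33 (SE, adjusted p = 0.000788), a level 6.11-fold lower. New Il1b stood at 2.91 and 2.88 at 9 h, 2.28 and 2.59 at 12 h and 0.612 and 0.603 at 24 h. The replicates lay close together and the groups did not overlap. Its change was -2.13 ± 0.14 (SE, adjusted p = 1.13e-05), a level 4.37-fold lower. Total protein, which contains the new channel, fell by 2.06 for Il1a and by 2.09 for Il1b on the log2 scale. Old Il1b fell by 1.75, whereas old Il1a had a change of -0.23 ± 0.39 (adjusted p = 0.651). Of the 4 members of the cytokine list tested, of 19 listed, Il1a and Il1b were the 2 that fell; Il1rn, the interleukin-1 receptor antagonist, had a change of 0.63 ± 0.37 (adjusted p = 0.246, from 1 unique peptide). Its second protein group, Il1rn (group 2), also of 1 unique peptide, rose by 0.79 ± 0.21 (adjusted p = 0.0215), a call lost without replicate 1 of 9 h or of 12 h and without either 24 h run (adjusted p up to 0.151).

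In mock cells, new Il1a was 0.130 at 9 h, 0.157 at 12 h and 0.165 at 24 h (means of 2 runs), and new Il1b was 0.111, 0.104 and 0.214. Both proteins were above these means in both LPS runs of 24 h. The LPS change minus the mock change was -2.77 for Il1a (adjusted p = 0.0388) and -3.06 for Il1b (adjusted p = 0.00634). The Il1a difference lost its call in 10 of 12 fits that left out a run, and the Il1b difference lost it without replicate 1 of LPS 24 h (adjusted p = 0.0542) and without replicate 1 of mock 24 h (adjusted p = 0.1003).

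**Figure D2:**
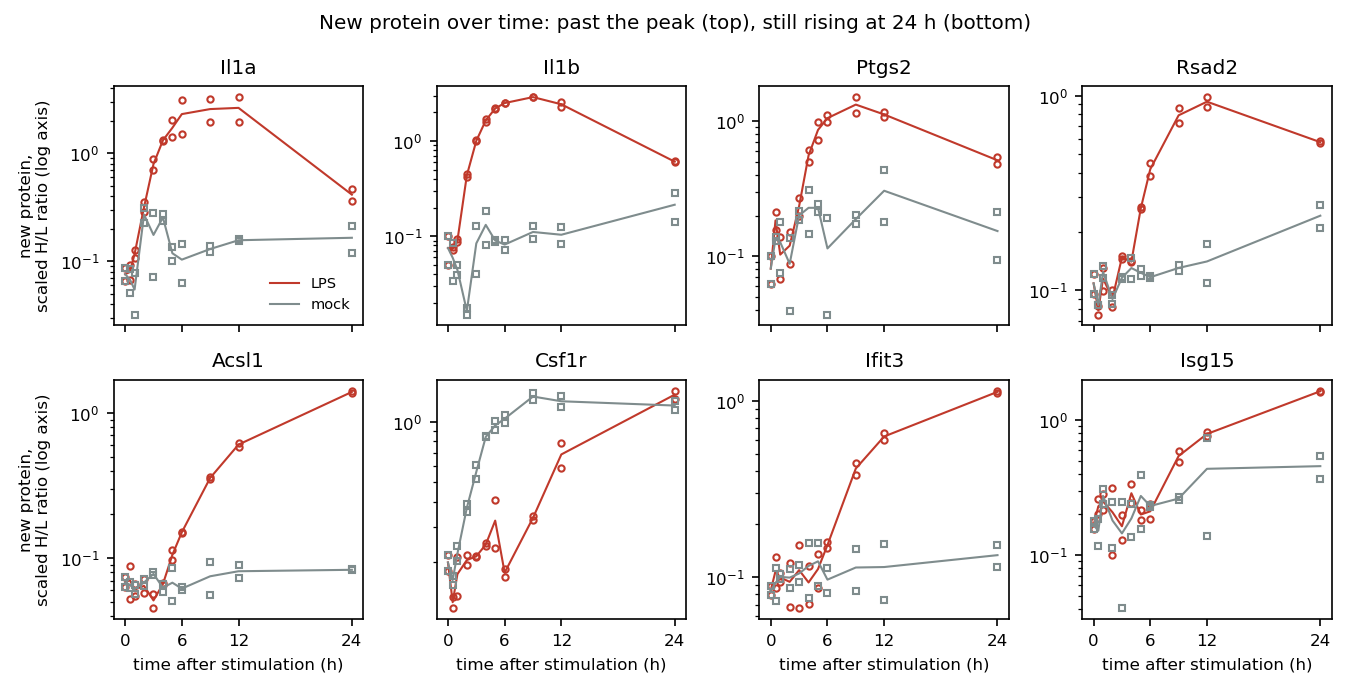
New protein (H/L divided by the run factor, log axis) against hours after stimulation for 8 proteins, with each run as a point and the mean of 2 runs as a line, LPS in red and mock in grey. Il1a, Il1b, Ptgs2 and Rsad2 (top) are lower at 24 h than at 9 and 12 h, and Acsl1, Csf1r, Ifit3 and Isg15 (bottom) are higher, with both 24 h runs beyond all 4 runs of 9 and 12 h.

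Enzymes and regulators of the early response had also passed their peak. New Ptgs2, the inducible cyclooxygenase of prostaglandin synthesis, stood at 1.51 and 1.14 at 9 h, 1.16 and 1.08 at 12 h and 0.542 and 0.484 at 24 h, with a change of -1.24 ± 0.31 (SE, adjusted p = 0.0166). The AP-1 subunit Junb stood at 1.31 and 0.986 at 9 h, 0.837 and 1.10 at 12 h and 0.567 and 0.626 at 24 h, a change of -0.81 ± 0.25. Mcl1, a short-lived anti-apoptotic protein of the Bcl-2 family, changed by -0.74 ± 0.24, and Tnfaip2, a TNF-inducible protein, by -0.70 ± 0.16. The receptor Notch2, from 2 unique peptides and with no mock value at 9, 12 or 24 h, changed by -1.08 ± 0.24. In all of these both 24 h runs lay below the 4 earlier runs. With either 24 h run left out, Ptgs2, Notch2, Junb, Mcl1 and Tnfaip2 kept their direction and lost their call, with adjusted p between 0.0871 and 0.244; for Junb so did leaving out replicate 2 of 12 h or replicate 1 of 9 h, and for Mcl1 leaving out any run. Junb was the only member of the NF-kB and AP-1 list (8 tested of 33 listed) that fell, and none rose. New Ptgs2 changed by -0.69 in mock cells, and its LPS minus mock change was -0.55 (adjusted p = 0.997 by limma). The LPS minus mock change was not called by limma either for Junb (-1.09, adjusted p = 0.464), Mcl1 (-0.67, adjusted p = 0.997) or Tnfaip2 (-1.16, adjusted p = 0.354).

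A group of interferon-inducible proteins had passed its peak as well. Slfn2, a Schlafen family protein, stood at 1.31 and 1.12 at 9 h, 0.952 and 0.904 at 12 h and 0.404 and 0.467 at 24 h, a change of -1.29 ± 0.19 (SE, adjusted p = 0.00150). The GTPase Ifi47 changed by -0.65 ± 0.17 and AI607873, a member of the Ifi200 family, by -0.997 ± 0.20. Rsad2, the antiviral enzyme viperin, stood at 0.720 and 0.863 at 9 h, 0.875 and 0.984 at 12 h and 0.570 and 0.582 at 24 h, a change of -0.57 ± 0.18 (SE, adjusted p = 0.0387). The 24 h level of Rsad2 remained above the mock means of 0.130, 0.141 and 0.242. Its mock change was 0.84, and the LPS change minus the mock change was -1.41 (adjusted p = 0.00634). Without either 24 h run, AI607873, Ifi47 and Rsad2 lost their call, with adjusted p up to 0.220. Ifi47 also lost it without replicate 2 of 9 h or of 12 h, and Rsad2 without replicate 1 or 2 of 12 h or replicate 2 of 9 h; Slfn2 kept it in each of 6 such fits.

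Other proteins outside the induced set were lower too. New Ptx3, a secreted pentraxin, stood at 1.67 and 1.38 at 9 h, 0.889 and 0.906 at 12 h and 0.417 and 0.132 at 24 h, a change of -2.32 ± 0.36 (SE, adjusted p = 0.00189). Ptx3 and Cxcl2 were not in the induced set. The neutrophil chemokine Cxcl2 stood at 1.83 and 1.65 at 9 h, at 1.04 in the 1 run of 12 h that measured it, and at 0.707 and 0.509 at 24 h, a change of -1.17 ± 0.26 fitted with that run missing. Its adjusted p of 0.0111 rose to 0.130 without replicate 2 of 24 h. C1qb, a chain of complement C1q made by macrophages, fell by 1.23 (SE 0.18) on the log2 scale to 0.286 and 0.262, while its mock mean was 0.829 at 9 h and 1.10 at 24 h. The C1qb change was 1.60 lower in LPS than in mock on the log2 scale (LPS minus mock -1.60, adjusted p = 0.000993).

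The 5 induced proteins that still rose were Sp100, Ddx58, Arf4, Rps29 and Pnp. Ddx58, the RNA sensor RIG-I, stood at 0.491 and 0.551 at 9 h, 0.746 and 0.872 at 12 h and 1.21 and 1.43 at 24 h, a change of 1.02 ± 0.26 (SE, adjusted p = 0.0181). Both 24 h runs were above all earlier runs. The nuclear body protein Sp100, in its second protein group of 3 unique peptides (Sp100 (group 2)), changed by 1.28 ± 0.39, the small GTPase Arf4 by 0.82 ± 0.21, the ribosomal protein Rps29 by 0.78 ± 0.15 and the purine enzyme Pnp by 0.71 ± 0.15. New Rps29 stood at 0.111 and 0.104 at 9 h, 0.134 and 0.117 at 12 h and 0.205 and 0.193 at 24 h. Its 9 and 12 h values were close to the median scaled H/L of the 0 h runs, 0.125 and 0.115. In mock cells new Rps29 and Arf4 changed by 1.20 and 1.11, more than in LPS. The mock changes of Sp100 (group 2), Ddx58 and Pnp were 0.63, 0.33 and 0.30. In new protein the LPS minus mock change was not called for any of the 5 (adjusted p = 0.997 by limma). None of the 5 rose relative to the median protein, and on the deposited normalized ratios Arf4, Rps29 and Pnp had changes of -0.16, -0.035 and -0.031. Each of the 5 lost its call without either 24 h run, Sp100 (group 2) without any of the 6 runs, and Arf4 also without replicate 1 of 12 h (adjusted p = 0.0503).

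Irg1, Cd14 and Sqstm1 were among the 54 that neither rose nor fell. New Irg1, the itaconate-forming enzyme also called Acod1, stood at 0.797 and 0.820 at 9 h, 0.930 and 1.11 at 12 h and 1.18 and 1.25 at 24 h, a change of 0.42 ± 0.16 (adjusted p = 0.0852). Both 24 h runs were highest, and total Irg1 rose by 0.39 (adjusted p = 0.0139), though its change was -0.36 on the deposited normalized ratios and the call was lost without either 24 h run. The LPS co-receptor Cd14 stood between 0.780 and 0.899 in all 6 runs, a change of 0.02 ± 0.18 (adjusted p = 0.951). The autophagy receptor Sqstm1 had a change of -0.19 ± 0.16. Outside the induced set, Nos2, the inducible nitric oxide synthase, had a change of -0.57 ± 0.24 (adjusted p = 0.107), and Cd40, a co-stimulatory receptor, of 0.16 ± 0.42.

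New protein of a further group rose from 9 and 12 h to 24 h, and Acsl1, Isg15, Ifit3, Csf1r, C3 and Hp among them were not in the set induced at 4 to 6 h. The rise of these named proteins was under way before 12 h, as each was higher at 12 h than at 9 h. New Acsl1, which activates long-chain fatty acids, stood at 0.349 and 0.365 at 9 h, 0.586 and 0.624 at 12 h and 1.36 and 1.42 at 24 h, a change of 1.58 ± 0.22 (SE, adjusted p = 0.000929). Mock means stayed between 0.0752 and 0.0833. The LPS change minus the mock change was 1.47 (adjusted p = 0.0232), and the same difference in total protein was 1.26 (adjusted p = 7.16e-10). The call on new protein held with each LPS run left out, and the difference from mock lost its call in 6 of 12 such fits, those without either 24 h run of LPS or of mock and those without replicate 1 of mock 9 h or 12 h.

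Isg15 and Ifit3, which are interferon-inducible, rose late. New Isg15, a ubiquitin-like modifier, stood at 0.487 and 0.593 at 9 h, 0.758 and 0.814 at 12 h and 1.65 and 1.61 at 24 h, a change of 1.32 ± 0.37. New Ifit3, which binds within the antiviral Ifit complex, stood at 0.380 and 0.447 at 9 h, 0.603 and 0.653 at 12 h and 1.14 and 1.11 at 24 h, a change of 1.15 ± 0.35. Both proteins had both 24 h runs above the earlier ones. In mock cells new Isg15 stood at 0.269 and 0.254 at 9 h, 0.731 and 0.138 at 12 h and 0.542 and 0.367 at 24 h. New Ifit3 in mock stood at 0.144 and 0.0832 at 9 h, 0.154 and 0.0746 at 12 h and 0.153 and 0.114 at 24 h. Neither Isg15 nor Ifit3 was among the 7 proteins called higher in the LPS change than in the mock change. Isg15 lost its call without either 24 h run, either 12 h run or replicate 1 of 9 h, and Ifit3 without any 1 of the 6 runs, with adjusted p up to 0.206. Of 45 interferon effectors tested of 69 listed, 11 rose, 2 fell (Slfn2 and Rsad2) and the median was 0.62, close to the 19.5% higher and the median of 0.61 over all proteins. The list's median was -0.01 with each channel centred and -0.17 on the deposited normalized ratios, and 0 rose in either by limma's test, with 1 higher at an unadjusted p under 0.05 in each. In total protein 15 of the 45 rose and 2 fell, beside 2.88% and 2.14% of all proteins, with a median of 0.48. On the deposited normalized ratios this median was -0.13 and 0 rose by limma's test (2 at an unadjusted p under 0.05). In the GTPase list 3 proteins rose in new protein and 1 fell (Ifi47), with a median of 0.71, beside 0.61 over all proteins. Gbp2, a guanylate-binding protein of the interferon response, rose by 1.08 and lost its call without either 24 h run. With channels centred, and likewise on the deposited normalized ratios, 0 of the list rose by limma's test (0 also at an unadjusted p under 0.05) and 1 fell.

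The promoters of 3 of these genes are shown because Isg15 and Ifit3 rose while Rsad2 fell and all of them hold the same interferon-response core. The sequences are RefSeq promoters of GRCm38.p6, 250 bases before to 50 after the start, read 5′ to 3′ on the gene's strand. Capitals mark matches to the interferon-stimulated response element core (GAAA, any 2 bases, GAAA) on either strand, and the 3 matches of Isg15 overlap into 1 run. Isg15 lies at chr4:156200769-156201068 on the minus strand, Ifit3 at chr19:34583279-34583578 on the plus strand and Rsad2 at chr12:26456403-26456702 on the minus strand.
Isg15: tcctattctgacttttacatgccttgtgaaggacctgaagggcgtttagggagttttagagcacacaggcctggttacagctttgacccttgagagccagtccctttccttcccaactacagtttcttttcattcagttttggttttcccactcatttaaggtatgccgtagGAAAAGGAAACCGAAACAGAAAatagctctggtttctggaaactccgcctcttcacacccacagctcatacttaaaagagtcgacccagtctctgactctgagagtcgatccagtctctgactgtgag
Ifit3: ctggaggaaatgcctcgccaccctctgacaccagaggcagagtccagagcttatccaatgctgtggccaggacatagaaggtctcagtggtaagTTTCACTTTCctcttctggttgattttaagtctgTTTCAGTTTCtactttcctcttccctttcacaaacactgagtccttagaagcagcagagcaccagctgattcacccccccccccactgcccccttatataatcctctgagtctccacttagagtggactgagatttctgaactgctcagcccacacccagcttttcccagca
Rsad2: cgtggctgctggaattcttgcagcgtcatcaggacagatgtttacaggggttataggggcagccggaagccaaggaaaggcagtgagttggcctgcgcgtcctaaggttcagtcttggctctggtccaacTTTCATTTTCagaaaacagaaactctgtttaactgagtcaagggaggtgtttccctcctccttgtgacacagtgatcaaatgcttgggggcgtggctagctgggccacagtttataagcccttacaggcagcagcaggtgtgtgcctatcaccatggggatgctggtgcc
The core was found in 3.99% of 27025 genes with a promoter in the table. It was found in 5 of the 9 interferon effectors that rose and could be matched by symbol, of 11 that rose, and in 2 of the 11 induced proteins past their peak, Rsad2 and AI607873 (current symbol Ifi207). Of the 5 still rising, 4 were matched and Ddx58 held the core. The kB core (GGGA, any base, TTTCC, either strand), found in 0.466% of genes, was in none of the promoters of these matched genes, 9 interferon effectors, 11 past their peak and 4 still rising. A match is a description of letters in this window.

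Csf1r and several secreted proteins rose late, and these examples come from no fixed list. Csf1r, the receptor for the macrophage growth factor, had new protein of 0.338 and 0.326 at 9 h, 0.590 and 0.784 at 12 h and 1.30 and 1.43 at 24 h, a change of 1.52 ± 0.24 (SE, adjusted p = 0.00182). Its old protein had been 1.41 at 0 h and stood at 0.386 and 0.446 at 9 h, 0.137 and 0.0760 at 12 h and 0.189 and 0.125 at 24 h. With 9 and 12 h averaged, 14.6% was left there and 10.9% at 24 h. That change of -0.42 ± 0.35 was not called by limma (adjusted p = 0.359). Both 24 h runs lay above the 12 h run of the same replicate. Old Csf1r was also uneven earlier in LPS, with 0.651 and 0.346 at 4 h and 0.0748 and 0.125 at 6 h. Total Csf1r rose by 0.98 (adjusted p = 0.0112), a call lost without either 24 h run. In mock cells new Csf1r was 1.33, 1.26 and 1.20, and the change of LPS minus mock was 1.63 (adjusted p = 0.00305). The level of new Csf1r in LPS cells thus stood below mock at 9 and 12 h and reached it at 24 h.

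Complement C3 rose by 1.48 ± 0.18 in new protein, from 0.375 and 0.431 at 9 h and 0.583 and 0.586 at 12 h to 1.44 and 1.26 at 24 h, with an LPS minus mock change of 1.52 (adjusted p = 0.00814). Haptoglobin (Hp), an acute-phase binder of haemoglobin, stood at 0.548 and 0.615 at 9 h, 0.842 and 0.880 at 12 h and 2.08 and 2.41 at 24 h, a change of 1.66 ± 0.25. In mock cells new Hp stood at 0.243 and 0.174 at 9 h, 0.225 and 0.178 at 12 h and 0.290 and 0.471 at 24 h. Hp was not among the 7 proteins called higher in the LPS change than in the mock change. The lipoprotein-associated phospholipase Pla2g7 rose by 1.33 ± 0.14, with no shift in mock (change -0.0084) and an LPS minus mock change of 1.34 (adjusted p = 0.00083). Lgals3bp, a secreted galectin-binding glycoprotein, rose by 1.69 ± 0.26. C3, Hp, Pla2g7 and Lgals3bp also rose in total protein, by 1.10, 1.50, 1.04 and 1.07. The C3 difference from mock lost its call without replicate 1 of LPS 24 h or either run of mock 24 h.

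Several redox and mitochondrial enzymes rose in new protein. Glutaredoxin (Glrx), which reduces protein disulfides, stood at 0.118 and 0.127 at 9 h, 0.183 and 0.204 at 12 h and 0.637 and 0.687 at 24 h, a change of 2.11 ± 0.22 (SE, adjusted p = 0.000402). Its LPS minus mock difference was 2.02 (adjusted p = 0.00814), a call lost without either LPS 24 h run or replicate 2 of mock 24 h. The mitochondrial superoxide dismutase Sod2 rose by 1.68 ± 0.27, and the peroxiredoxins Prdx2 and Prdx5, which remove peroxides, by 1.81 ± 0.23 and 1.68 ± 0.19. Of the 23 tested members of the pentose phosphate and NRF2 target list, 14 rose and none fell, beside 19.5% higher among all proteins, with a median of 0.98. With channels centred 2 rose and the median was 0.35; on the deposited normalized ratios 0 rose by limma's test (5 at an unadjusted p under 0.05) and it was 0.22. In mock cells 13 of the 22 members compared rose too (median 0.73), beside 486 of all 2960 proteins compared. Slc25a10, the mitochondrial dicarboxylate carrier, rose by 2.52 ± 0.31 with no new-protein value in mock at 9, 12 or 24 h, and lost its call without either 24 h run. Mcat, a mitochondrial fatty acid synthesis enzyme, had a fitted change of 5.07 ± 0.70, on values that spread from 0.0686 to 0.670 in the 3 runs of 9 and 12 h that measured it and were 9.26 and 3.80 at 24 h.

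Lists of protein folding and turnover machinery had more members called higher in new protein than in total protein, as did all proteins tested (19.5% and 2.88%). Of 27 ER folding and translocation proteins tested, 19 rose and none fell in new protein, beside 19.5% higher among all proteins, with a median of 1.07, and 3 rose in total protein. With channels centred 3 of the 27 rose in new protein (median 0.43), and on the deposited normalized ratios 0 by limma's test (3 at an unadjusted p under 0.05, median 0.25). In mock cells 15 of the 26 compared rose (median 0.99), beside 486 of all 2960 proteins compared. The chaperone Calr rose by 1.68 ± 0.17 and the disulfide isomerase Pdia3 by 1.55. The mock change of new Calr was 1.55, and LPS minus mock was 0.13 (adjusted p = 0.997). Of 34 constitutive proteasome subunits 21 rose in new protein and 1 in total protein, and 4 rose in new protein in mock cells. With channels centred 0 of the 34 rose in new protein by limma's test (6 at an unadjusted p under 0.05), and on the deposited normalized ratios 0 rose and 0 passed unadjusted. Of 34 mitochondrial ribosome proteins tested none rose or fell in new protein by limma, and 0 passed at an unadjusted p under 0.05, with a median of 0.12. Of 10 sterol synthesis enzymes likewise none rose or fell by limma and 0 passed unadjusted, with a median of 0.02.

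In old protein, 1109 of 3305 proteins tested fell, which is 33.6%, and 24 rose, which is 0.726%, and the median change was -0.21. The count of 1133 calls was 514 without replicate 1 of 24 h, 14 without the run factor and 235 with each channel centred, where 188 fell (5.69%), 47 rose (1.42%) and the median was 0.0097. Against the mean of old protein at 0 h, a median of 91.5% was left at 9 and 12 h and 79.4% at 24 h. Of the 1056 proteins that fell and had a 0 h value, 931 were already below their 0 h level at 9 and 12 h. Fewer than 50% of the 0 h level was left for 70 proteins at 9 and 12 h and for 213 at 24 h. In bulk samples, fewer cells of a type and less protein per cell cannot be told apart.

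**Figure D3:**
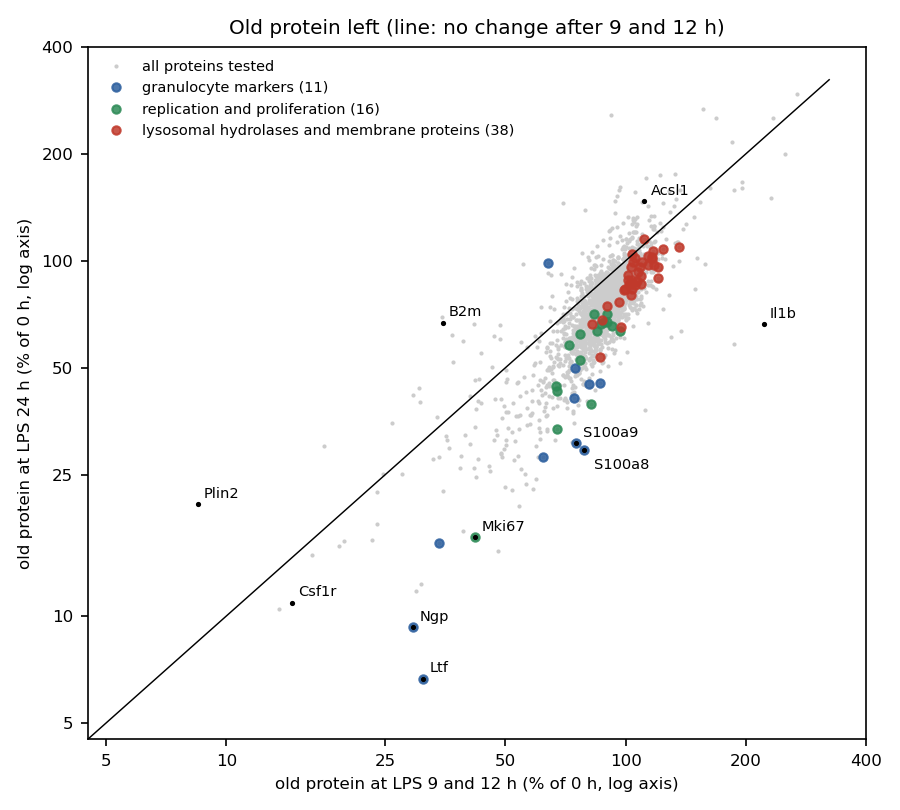
Old protein left at LPS 24 h against that at 9 and 12 h, both as percent of the 0 h level (log axes), one point per protein tested; lists are coloured and the line marks no change after 9 and 12 h. Nearly all granulocyte and replication proteins lie below the line, Ltf lowest of those named with 6.66% left, and Plin2, B2m and Acsl1 lie above it.

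Granule proteins of neutrophils were among those whose old protein fell steeply. Old lactoferrin (Ltf), an iron-binding granule protein, stood at 0.911 and 0.899 at 9 h, 0.712 and 0.874 at 12 h and 0.189 and 0.173 at 24 h, a change of -2.22 ± 0.09 (SE, adjusted p = 1.10e-08). It had 31.1% of its 0 h level left at 9 and 12 h and 6.66% at 24 h. Neutrophilic granule protein (Ngp) stood at 0.624 and 0.611 at 9 h, 0.496 and 0.502 at 12 h and 0.166 and 0.185 at 24 h, a change of -1.66 ± 0.06. The calgranulins S100a8 and S100a9, calcium-binding alarmins, changed by -1.42 ± 0.09 and -1.29 ± 0.07. Old S100a8 was between 1.81 and 2.07 in the 4 earlier runs and 0.695 and 0.746 at 24 h, so the groups were far apart. Of 11 granulocyte markers tested, 10 fell in old protein, beside 33.6% of all proteins, with a median of -1.09, which was -0.87 with channels centred and -0.90 on the deposited normalized ratios. Total protein fell for 7 of the 11 and rose for Hp, beside 2.14% lower and 2.88% higher among all proteins.

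Granulocyte markers fell in mock cells too. The median old change of the 11 markers was -1.09 in LPS and -0.99 in mock. Of the 11 markers 8 fell in mock, beside 1021 of all 3033 proteins compared. Ltf differed, with a mock change of -1.08 and an LPS minus mock change of -1.15 (adjusted p = 2.40e-06), and so did Ngp, with -0.54 in mock and a difference of -1.12 (adjusted p = 1.61e-07). The summed granulocyte level given above moved with these groups, and its part in the results was not tested.

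Old protein of the replication list fell. Mki67, the proliferation antigen Ki-67, stood at 0.766 and 0.798 at 9 h, 0.629 and 0.643 at 12 h and 0.246 and 0.319 at 24 h, a change of -1.33 ± 0.11 (SE, adjusted p = 1.85e-05). The cell cycle kinase Cdk1 changed by -1.01 ± 0.14 and the ribonucleotide reductase subunit Rrm1 by -1.05 ± 0.22. Rrm1 lost its call without replicate 1 of 24 h (adjusted p = 0.0776). Of 23 members tested, 19 fell in old protein and none rose, beside 33.6% lower among all proteins, with a median of -0.45. With channels centred 9 fell and the median was -0.24. Total protein fell for 9 of 20 (median -0.35), beside 2.14% of all proteins. In mock cells all 17 members compared fell in old protein, beside 1021 of all 3033 proteins compared. The median of the 17 was -0.53 in mock and -0.45 in LPS.

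Old protein of surface receptors and sterol enzymes also went on falling. The integrin Itgax, the Cd11c marker of dendritic cells, had old protein of 0.596 and 0.675 at 9 h, 0.546 and 0.512 at 12 h and 0.329 and 0.294 at 24 h, a change of -0.90 ± 0.10 (SE, adjusted p = 7.14e-05), and 40.9% of the 0 h level was left. The adhesion receptor Cd97 changed by -1.65 ± 0.23 and Fcer1g, the shared signalling chain of Fc receptors, by -1.41 ± 0.19. Of 17 phagocytic and pattern recognition receptors, 10 fell in old protein and 1 rose, beside 33.6% lower among all proteins, with a median of -0.56. With channels centred 6 fell and the median was -0.35. In mock cells 7 of the 17 fell, beside 1021 of all 3033 proteins compared. Of 10 sterol synthesis enzymes 8 fell, among them Hmgcs1 by 0.97 and Idi1 by 0.64 on the log2 scale. With channels centred 2 of the 10 fell and the median was -0.10. In mock cells 5 of the 8 sterol enzymes compared fell, with a median of -0.30 beside -0.32 in LPS. Cd74, the invariant chain of MHC class II, had lost most of its old protein earlier: 23.8% was left at 9 and 12 h and 18.1% at 24 h (change -0.39 ± 0.36, adjusted p = 0.402).

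Of the 70 proteins with under 50% of old protein left at 9 and 12 h, 23 fell further, 7 rose and 40 did neither. The 23 included Ltf, Ngp, Mki67, Cd97, Lcn2, an iron-sequestering granule protein, Sdcbp, a syndecan-binding scaffold, and Cript. Old Lcn2 changed by -1.09 ± 0.28, a call lost without replicate 2 of 24 h (-0.45, adjusted p = 0.120). Csf1r and Cd74 were among the 40 that had already fallen before 9 and 12 h. The 7 that rose were Plin2, C1qb, Axl, B2m, H2-D1, H2-K1 and Pik3ap1. Axl and Pik3ap1 lost their call without either 24 h run, and Pik3ap1 also without replicate 1 of 9 h or replicate 2 of 12 h. A rise in M/L is a rise of the medium channel and is given here as measured.

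The medium channel rose for several MHC class I and interferon-inducible proteins. B2m, the light chain of MHC class I, had M/L of 0.124 and 0.103 at 9 h, 0.123 and 0.0931 at 12 h and 0.226 and 0.197 at 24 h, a change of 0.94 ± 0.13 (SE, adjusted p = 0.000374). It had 34.8% of the 0 h level at 9 and 12 h and 66.9% at 24 h. LPS minus mock was 0.84 (adjusted p = 0.00120). The heavy chains H2-D1 and H2-K1 rose by 0.67 and 0.39 and the peptide transporter Tap1 by 0.39, although H2-K1 had a change of -0.19 when summed channel intensities were used in place of ratios. For H2-D1 the groups overlapped, with 0.150 in replicate 2 of 24 h and 0.152 in replicate 1 of 9 h. These were calls that each were lost without replicate 1 of 24 h and without replicate 2 of 9 h or of 12 h. Of 14 tested members of the MHC class I list, 4 rose and 2 fell, beside 0.726% and 33.6% of all proteins, with a median of 0.10, which was -0.13 without the run factor. Of 45 interferon effectors 9 rose and 4 fell in the medium channel; Bst2, a tether of budding virus, rose by 1.49, the nucleic acid sensor Zbp1 by 0.67, and Ifit2 by 0.72. Bst2 and Ifit2 lost their call without either 24 h run, Zbp1 without replicate 1 of 24 h (adjusted p = 0.157), and Ifit2 also without replicate 2 of 9 or 12 h.

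Plin2, the coat protein of lipid droplets, had M/L of 0.0841 and 0.0652 at 9 h, 0.0611 and 0.0685 at 12 h and 0.130 and 0.218 at 24 h, a change of 1.28 ± 0.20 (SE, adjusted p = 0.00110). Its share of the 0 h level moved from 8.47% to 20.6%, and its change was -0.025 when summed channel intensities were used in place of ratios. Acsl1 rose by 0.40 ± 0.07 in M/L as well, to 147% of the 0 h level. M/L of Il1b moved the other way, by -1.75 ± 0.16, after it had stood at 222% of its 0 h level at 9 and 12 h. The 2 channels of Il1b and of Acsl1 thus moved in the same direction.

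Replacement, the ratio H/M, rose in 1213 of 3230 proteins (37.6%) and fell in 9 (0.279%), with a median of 0.83. H/M was un-normalized here and had no run factor. Centring the channels sets the median near 0 by its construction, so it cannot show a direction: 18 rose and 17 fell there (median 0.0015). The median was -0.14 on the deposited normalized ratios, where 0 rose and 1 fell by limma's test (58 higher and 168 lower at an unadjusted p under 0.05). The count of calls was 399 without replicate 1 of 24 h and 552 without replicate 2 of 24 h. The 9 that fell included Il1a with -2.45 ± 0.42, coagulation factor F10 with -2.13 ± 0.72, Plin2 with -1.70 ± 0.26, C1qb with -1.67 ± 0.27, Ptx3 with -1.25 ± 0.41 and the macrophage elastase Mmp12 with -1.25 ± 0.22. F10 and Ptx3 lost their call in 4 and in 5 of 6 fits without 1 run. The highest were Mcat with 5.05 ± 0.72 and Fam50a with 2.62 ± 0.51, and Fcer1g had 2.40 ± 0.21.

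In total protein the run factor sets the median change near 0 by its construction, and it was -0.01. Of 3230 tested, 93 rose (2.88%) and 69 fell (2.14%), and the count of 162 was 66 without replicate 1 of 24 h and 75 without replicate 2 of 24 h. The balance turned with the scaling: on the deposited normalized ratios 6 rose and 49 fell (median -0.16), and without the run factor 1 rose and 3 fell (median -0.24). Total protein fell for Ptx3 with -2.10 ± 0.34, Il1b with -2.09 ± 0.07, Il1a with -2.06 ± 0.32, S100a8 with -1.32 ± 0.09 and S100a9 with -1.21 ± 0.07. Ngp fell by 1.15, Ltf by 1.12, Slfn2 by 1.09, Notch2 by 1.06, Cxcl2 by 1.03 and Ptgs2 by 1.01 on the log2 scale. The rises included Hp with 1.50 ± 0.12, Acsl1 with 1.34 ± 0.07, Isg15 with 1.13 ± 0.24 and Fpr2, a formyl peptide receptor, with 1.05 ± 0.20. Total Acsl1 stood at 0.509 and 0.552 at 9 h, 0.749 and 0.797 at 12 h and 1.58 and 1.65 at 24 h. In a fit with the replicate number as a block, 139 rose and 99 fell. Cxcl2 lost its call without replicate 2 of 24 h, and Ptgs2, Isg15 and Fpr2 without either 24 h run, Ptgs2 and Isg15 also without replicate 1 of 9 h and Ptgs2 without replicate 1 of 12 h.

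The LPS change was set against the same change in mock cells, fitted over all 21 groups. In new protein 7 of 2960 proteins were higher (0.236%) and 10 lower (0.338%) in the LPS change than in the mock change. The count of 17 was 4 without replicate 1 and 8 without replicate 2 of LPS 24 h, 5 without replicate 2 and 8 without replicate 1 of mock 24 h, and 11 without replicate 1 of mock 9 h or of mock 12 h. In old protein 62 of 3033 were higher (2.04%) and 291 lower (9.59%), and with the replicate block these were 123 and 454, with channels centred 100 and 238 and on the deposited normalized ratios 242 and 447. In total protein 97 of 2960 were higher (3.28%) and 201 lower (6.79%), and with the replicate block 190 and 307. The old count of 353 was 179 without replicate 1 of LPS 24 h and 189 without replicate 2 of mock 24 h, and the total count of 298 was 188 and 169 in these fits and 192 without replicate 2 of LPS 24 h.

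Old protein of the lysosomal and histone lists had median changes of opposite sign in LPS and mock. For 38 lysosomal hydrolases and membrane proteins, the median old change was -0.25 in LPS and 0.37 in mock. Of the 38, 37 were lower in LPS, and 26 rose in mock, beside 154 of all 3033 proteins compared. In LPS, 24 of the 39 tested fell, beside 33.6% lower among all proteins. With channels centred 2 fell, beside 5.69% of all proteins, with a median of -0.04. The LPS change was lower than the mock change by limma's test in 29 of the 38, beside 9.59% of all proteins. Psap, the precursor of the saposins that assist lipid breakdown, had old protein of 0.837 and 0.872 at 9 h, 0.769 and 0.885 at 12 h and 0.536 and 0.588 at 24 h in LPS, while its mock means were 1.07, 1.05 and 1.07. Its LPS minus mock change was -0.59 (adjusted p = 0.000245). For 10 histones the medians were -0.37 in LPS and 0.98 in mock. The mock changes ranged from 0.98 (H1f0) to 1.45 (Hist1h1c) in the linker histones. In the other histones they ranged from -0.08 (Hist1h4a) to 0.36 (H2afy). Of the 10 histones, 3 fell in LPS, which is near the 33.6% lower among all proteins. In mock 6 of the 10 rose, beside 154 of all 3033 proteins compared. With channels centred 0 fell in LPS by limma's test (0 also at an unadjusted p under 0.05). The linker histone Hist1h1c stood at 0.826 and 0.807 at 9 h, 0.752 and 0.716 at 12 h and 0.626 and 0.589 at 24 h in LPS, and at mock means of 1.54, 1.30 and 3.93 (LPS minus mock -1.80, adjusted p = 1.30e-07). Its fall in LPS lost its call without either 24 h run (adjusted p up to 0.128), and its difference from mock was called in all 12 fits without 1 run. For TCA cycle enzymes the medians were -0.14 and 0.11, over 22 proteins. For the granulocyte, replication and proteasome lists the medians lay closer together: -1.09 and -0.99, -0.45 and -0.53, and -0.15 and -0.14. Over all 3033 proteins they were -0.21 and -0.17. In new protein, the dendritic cell maturation list had medians of 0.16 in LPS and 0.96 in mock, and all 11 members tested were lower in LPS, with 0 differences called by limma and 4 at an unadjusted p under 0.05.

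**Figure D4:**
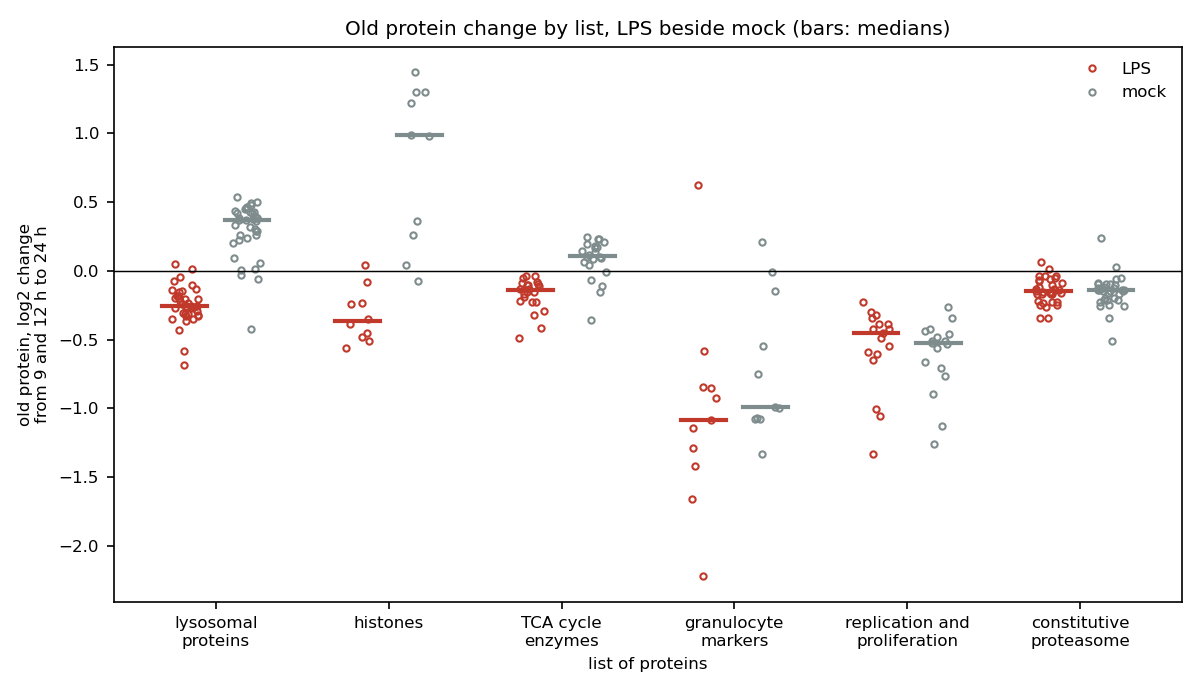
Old protein change from 9 and 12 h to 24 h (log2, vertical axis) for each member of 6 lists, LPS in red and mock in grey, with bars at the medians. Most lysosomal proteins, histones and TCA cycle enzymes lie below 0 in LPS and above 0 in mock, while most granulocyte, replication and proteasome proteins lie below 0 in both.

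New protein of 26 proteins was measured in both 24 h runs and in none of the 4 runs of 9 and 12 h, among them Sharpin, a subunit of the linear ubiquitin ligase, and Susd2, a sushi-domain membrane protein. The reverse held for 9, among them Csf2rb, a signalling chain of the GM-CSF receptor, and Rad50, a DNA repair protein. These names were chosen after their values were seen, and no level can be given for the runs without a ratio.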

How the data were processed

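Bone-marrow-derived dendritic cells were measured by pulsed SILAC mass spectrometry. The deposited protein table holds, per protein group and run, un-normalized and normalized ratios M/L, H/L and H/M, ratio counts (unit other: peptide pairs behind a deposited ratio) and summed channel intensity, as the authors deposited them. The column names follow MaxQuant, and neither software version nor settings were given in the sources used here; the submitters' processing notes name the build mm9. Of 6266 protein groups, 90 reverse, 97 contaminant and 216 by-site groups were dropped, some marked more than once. Names were updated through RefSeq: 5321 were current, 421 matched a synonym, 115 groups had no name and 239 had several.

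Ratios were divided by the run factor and fitted on the log2 scale with limma 3.58.1 in R 4.3.3, with 1 mean per time over the 20 LPS runs. Proteins needed a value in both 24 h runs and in at least 3 of the 4 runs of 9 and 12 h. The fit was tested on simulated data. Depth was 73785 to 86484 peptide pairs for M/L per run, and the number of runs limits the precision. Same-numbered runs deviated together in old protein (correlation over proteins of 0.370, 0.330 and 0.433 for 9 with 12 h, 9 with 24 h and 12 with 24 h, lowest over all LPS times 0.103), so replicate numbers were also fitted as a replicate block.

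The members and gene lists were chosen with earlier results of these data known. Some results are not reported here. Other proteins are named by rule: the 12 highest and 12 lowest called changes per result (6 for replacement, 8 for LPS minus mock) with both 24 h runs beyond the others, all induced proteins that rose or fell, up to 4 per list, and Il1a, Il1b, Acsl1, Il1rn, Irg1, Nos2, Ptgs2, Cd40, Cd14, Cd86, Sqstm1, Csf1r, Lpl, Apoe and Plin2. Calr, Itgax, Cd74, Psap, Cdk1, Sdcbp, Cript, Axl, Pik3ap1 and other proteins outside that rule were chosen after their values were seen. Alternatives were the scaling, a ratio count of at least 3, missing values, the runs in the fit, the comparator time, intensity in place of ratios and leaving out each run.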

Additional observations from a re-analysis of the deposited data

Results flagged for a closer look

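The change from 9 and 12 h to 24 h was compared between LPS and mock cells by limma's test of the difference itself (Benjamini-Hochberg adjusted p under 0.05), and the named proteins below differed. Values are the LPS change minus the mock change on the log2 scale, over 6 LPS and 6 mock runs except where fewer are named, and what underlies the differences was not tested.

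In new protein the LPS change was lower for Il1b (-3.06), Il1a (-2.77), C1qb (-1.60), Mmp12 (-1.46), Rsad2 (-1.41), Plaur (-1.20), Kpna3 (-1.19) and Myof (-1.06). It was higher for Glrx (2.02), Csf1r (1.63), C3 (1.52), Acsl1 (1.47), Pla2g7 (1.34), Ass1 (1.09) and Tubb5 (0.99). C1qb, Csf1r, Pla2g7 and Plaur kept their call with each run left out in turn, and the other 11 of the 15 lost it in at least 1 such fit, with adjusted p up to 0.587. With summed intensity the Myof value was 0.67.

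In old protein the LPS change was lower for Cst3 (-4.27), Il1b (-2.98), Impdh1 (-2.90), Cpeb4 (-2.22), Trim30a (-2.17), Iscu (-1.995), Hist1h1c (-1.80) and Pura (-1.79). It was higher for Zbp1 (1.25), Cpd (1.20), Hmgn5 (1.18), Nucks1 (1.15), Ppp1r14b (1.14), Nae1 (1.14), Aak1 (1.02) and Serpinb6 (0.97). Old Nucks1, a nuclear protein, changed by -0.13 in LPS and by -1.28 in mock. Old Impdh1, an enzyme of guanine nucleotide synthesis, had mock means of 1.11 at 9 h, 1.13 at 12 h and 4.52 at 24 h. Cst3 rests on 5 LPS and 5 mock runs, and Pura and Trim30a on 6 and 5. Aak1, Cpd, Cpeb4, Cst3, Iscu, Nae1, Pura and Trim30a lost their call in at least 1 fit without a run, with adjusted p up to 0.286, and old Cst3 kept it in 3 of 10 such fits.

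In total protein the LPS change was lower for Il1b (-3.26), Cst3 (-3.02), Impdh1 (-2.76), Il1a (-2.36), Hist1h1c (-1.78), Hist1h1b (-1.74), Creb1 (-1.72) and Trim30a (-1.55). It was higher for C3 (1.32), Acsl1 (1.26), Slfn1 (1.23), Ncor1 (1.21), Nucks1 (1.16), Sp100 (group 2) (1.15) and Nae1 (1.14). Cst3 rests on 5 LPS and 5 mock runs, and Ncor1 and Trim30a on 6 and 5. Creb1, Cst3, Nae1, Ncor1, Slfn1, Sp100 (group 2) and Trim30a lost their call in at least 1 fit without a run, with adjusted p up to 0.221. With summed intensity the Cst3 value was 0.67 in old and 0.80 in total protein.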

How the results depend on the processing

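Calls depended strongly on the scaling and on single runs. Counts are proteins called, for new (648), old (1133) and total protein (162), replacement (1222), the LPS minus mock changes in new (17), old (353) and total protein (298), and induced proteins lower (11) and higher (5). Without the run factor they were 4, 14 and 4 for new, old and total, 0, 3 and 2 for the LPS minus mock changes, and 2 and 0 for the induced proteins. With each channel centred, new was 51, old 235, replacement 35 and induced higher 0. On the deposited normalized ratios new, old, total and replacement were 20, 600, 55 and 1, the LPS minus mock changes 0, 689 and 11, and the induced proteins 7 and 0. With only the runs of the contrast in the fit, new, old and total were 1270, 347 and 72 and the LPS minus mock changes 10, 49 and 87. Against 12 h alone, new, old, total and replacement were 143, 668, 60 and 553 and the LPS minus mock changes 4, 173 and 148. With summed channel intensity new, old and total were 10, 10 and 20 and the LPS minus mock changes 0, 1 and 4. Induced at any fold, 16 were higher. With the replicate block, the LPS minus mock changes in old and total protein were 577 and 497; of the results on named proteins refitted with it, new Lpl gained its call, total Herc6 lost it and 188 kept theirs.

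Leaving out 1 run gave 115 to 525 for new, 514 to 1266 for old, 66 to 131 for total, 399 to 1106 for replacement, and 4 to 15, 179 to 393 and 169 to 314 for the LPS minus mock changes in new, old and total protein. On the deposited normalized ratios the direction turned for new Arf4 (-0.16), Rps29 (-0.035), Pnp (-0.031), B2m (-0.13) and Il1rn (group 2) (-0.20), and for total Irg1 (-0.36) and B2m (-0.071). With summed intensity it turned for old Plin2 (-0.025) and H2-K1 (-0.19) and total Mki67 (0.13), and for the LPS minus mock change of new Myof (0.67), old Cst3 (0.67) and total Cst3 (0.80). The cause was not tested. Over all alternatives, named proteins kept direction and call 2558 times, lost the call 835 times, gained it 11 times and turned 13 times. With 2 runs at 24 h, leaving out 1 leaves a lone run that is assumed to vary like the others, and low counts of peptide pairs limit single ratios.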
